A study of Mus musculus with 24 samples.

Results

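The genes described here are Esr1, Nr3c1, Nr3c2, Thra and Fkbp5, which encode 4 hormone receptors of skeletal muscle and a co-chaperone that regulates steroid receptors. They were taken from a list of names, with earlier results of these data known, and are 5 of the 54532 genes counted. Thra is a thyroid hormone receptor and not a steroid receptor, and Fkbp5 is not a receptor, so the set is a panel of hormone receptor genes rather than 1 family.

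RNA of the left gastrocnemius, a calf muscle, was sequenced from 24 wild-type C57/BL6 mice, 4 in each of 6 groups that combined 2 sexes with 3 conditions. Control mice were sedentary and received saline at pH 7.2 ± 0.1 in that muscle, in 2 injections of 20 µl with 5 days between them. In sedentary pain mice the injections were of pH 5.0 ± 0.1 on this schedule, with 6 min of electrically stimulated contraction right before the second. Active pain mice had running wheels for 8 weeks and then went through the same pain model; the time label was 24 h for every sample. Controls received neither acid nor contraction and no active group without pain was analysed here, so acid and contraction cannot be told apart, and running was compared only within the pain model. The labels give no age. They do not name single animals either, and p-values measure only the spread between these samples.

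The 5 genes lie on 5 chromosomes. In GENCODE M21 (build GRCm38), Esr1 (ENSMUSG00000019768) spans chr10:4611593-5005614 on the plus strand, Nr3c1 (ENSMUSG00000024431) chr18:39410545-39519421 on the minus strand, Nr3c2 (ENSMUSG00000031618) chr8:76899442-77245012 on the plus strand, Thra (ENSMUSG00000058756) chr11:98740638-98769006 on the plus strand and Fkbp5 (ENSMUSG00000024222) chr17:28399094-28517527 on the minus strand. Thra shares 263 exon bases, 5.7% of its exon length, with Nr1d1 on the opposite strand, which encodes the circadian repressor REV-ERB alpha. The libraries were stranded, but whether counting used strand is not given in the sources used here, so part of the Thra count could be Nr1d1 reads or the reverse. The other overlap within exons, 247 bases of Nr3c2 with Gm10649, involved a gene with 4 counts or fewer in any sample.

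Steroid and thyroid hormone receptors are transcription factors of the nuclear receptor superfamily. They bind hormone and DNA and recruit coregulators that raise or lower transcription. Esr1 encodes estrogen receptor alpha, Nr3c1 the glucocorticoid receptor, Nr3c2 the mineralocorticoid receptor and Thra thyroid hormone receptor alpha, the main thyroid hormone receptor of muscle. Before hormone binds, steroid receptors are held by HSP90 and its co-chaperones. Fkbp5 encodes the co-chaperone FKBP51, which lowers the affinity of the glucocorticoid receptor for its hormone and is itself a well known glucocorticoid-induced gene. In muscle, glucocorticoids promote protein breakdown, estrogen supports muscle mass and repair, and thyroid hormone sets contractile speed and metabolism.

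RefSeq promoter sequence (GRCm38.p6, 250 bases before to 50 after the start of transcription) was matched for Esr1, Nr3c2 and Fkbp5. The RefSeq starts lie inside the longer GENCODE spans given above. The Nr3c1 promoter is not reported here, and no RefSeq promoter entry was available for Thra. Capitals mark the GC box GGGCGG, which is bound by SP-family factors, and the estrogen response half-site GGTCA, each on either strand. The sequences are the Fkbp5 promoter at chr17:28486100-28486399 (minus strand), the Nr3c2 promoter at chr8:76902080-76902379 (plus strand) and the upstream Esr1 promoter at chr10:4611739-4612038 (plus strand).
Fkbp5 promoter: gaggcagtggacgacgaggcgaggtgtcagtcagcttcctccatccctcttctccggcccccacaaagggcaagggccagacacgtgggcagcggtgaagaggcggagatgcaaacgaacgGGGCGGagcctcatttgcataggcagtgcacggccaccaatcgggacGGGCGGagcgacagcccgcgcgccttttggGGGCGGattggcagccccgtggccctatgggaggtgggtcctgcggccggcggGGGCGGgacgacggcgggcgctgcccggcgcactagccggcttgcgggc
Nr3c2 promoter: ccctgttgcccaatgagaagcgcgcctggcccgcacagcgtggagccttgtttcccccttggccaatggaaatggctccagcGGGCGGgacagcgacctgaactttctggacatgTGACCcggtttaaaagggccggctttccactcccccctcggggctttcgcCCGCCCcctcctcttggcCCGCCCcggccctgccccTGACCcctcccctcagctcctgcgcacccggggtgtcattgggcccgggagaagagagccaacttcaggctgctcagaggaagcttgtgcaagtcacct
Esr1 promoter: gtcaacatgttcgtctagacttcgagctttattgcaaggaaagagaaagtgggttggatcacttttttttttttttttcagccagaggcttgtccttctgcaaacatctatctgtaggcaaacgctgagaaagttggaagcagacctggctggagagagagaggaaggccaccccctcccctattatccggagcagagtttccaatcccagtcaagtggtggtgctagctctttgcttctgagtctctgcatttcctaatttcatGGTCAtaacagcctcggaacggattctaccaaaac

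The Fkbp5 promoter held 4 GC boxes, 32 CpG dinucleotides and 70.7% G and C. The Nr3c2 promoter held 3 GC boxes, 17 CpG dinucleotides and 65.7% G and C, with 2 GGTCA half-sites. The upstream Esr1 promoter held no GC box, 6 CpG dinucleotides, 46.3% G and C and 1 GGTCA half-site; a second, downstream Esr1 promoter in the table had 12 CpG dinucleotides and neither motif. Over 32544 promoters of the same length, the median was 53% G and C and 7 CpG dinucleotides, 35.9% held a GC box and 40.5% a GGTCA half-site. The Fkbp5 and Nr3c2 promoters were thus richer in CpG than the median promoter and the upstream Esr1 promoter poorer. The glucocorticoid response half-site AGAACA, searched on both strands, was not found in any of the 4 windows, including that of Fkbp5, and is held by 18.9% of all promoters of this length. These matches describe letters in a window and not binding.

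Total counts per sample ran from 17612139 to 34039699. Every gene of the panel passed the filter on low counts, and the smallest count of any of them in any sample was 43, for Nr3c2. Markers of muscle fibres (Ckm, Acta1, Ttn and 5 others) summed to between 79161 and 177513 CPM, the read counts scaled to library size with TMM factors, in every library. Macrophage and monocyte markers, 12 genes with Cd68 and Adgre1 among them, summed to 76.9 to 175.7 CPM in female controls and to 410, 699, 3356 and 4318 CPM in replicates 1 to 4 of female sedentary pain, and 11 of the 12 rose. Lymphocyte markers summed to 0.34 to 1.99 CPM in female controls and 2.95 to 77.1 CPM in female sedentary pain. Satellite cell markers, at 34.04 to 41.3 CPM in female controls, were at 35.8, 73.8, 100.4 and 180.3 CPM in sedentary pain replicates 1 to 4. Fibro-adipogenic progenitor markers, at 668 to 823 CPM in female controls, were at 804, 669, 1658 and 1587 CPM, and 2 of 5 satellite cell and 2 of 8 progenitor markers tested rose, beside 19.6% of all genes. Adipocyte markers were at 5928 and 2877 CPM in female control replicates 3 and 4 and between 150.4 and 778 CPM in all other libraries. No marker list had a gene at 0 in all 4 samples of any group.

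The receptors differed widely in abundance. Levels are given as CPM divided by exon length in kb, averaged over the 24 samples, the only scale here on which genes can be compared. Exon length is that of all annotated exons of a gene merged, 13661 bases for Esr1, and the order of genes depends on it. Thra was the most abundant of the 5 at 17.4 CPM per kb, followed by Nr3c1 at 9.83, Fkbp5 at 4.94, Esr1 at 1.88 and Nr3c2 at 1.27. Of the retinoid X receptors, which pair with thyroid receptors, Rxra at 40.8 and Rxrg at 37.98 CPM per kb were above Thra and Rxrb at 12.7 CPM per kb was below it. The orphan estrogen-related receptor Esrra was at 25.2 CPM per kb, with Esrrg at 1.55 and Esrrb at 0.553.

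The second thyroid receptor gene, Thrb, was at 2.19 CPM per kb, between Fkbp5 and Esr1. In CPM not divided by length, Thrb at 16.2 was below Esr1 at 25.6. The membrane estrogen receptor Gper1 was at 0.386 and the vitamin D receptor Vdr at 0.0477 CPM per kb. Estrogen receptor beta, Esr2, had 63 counts and the progesterone receptor, Pgr, 73 counts over all 24 samples, and neither passed the filter. Of the Pgr counts, 61 came from female control replicate 4, at 1.86 CPM. Another 9 came from female control replicate 3, and no other sample had more than 1 count of this textbook estrogen target, female control replicates 1 and 2 being at 0. Female control replicates 3 and 4 are also the libraries with the high adipocyte marker sums, whose part in the Pgr counts was not tested.

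**Figure D1:**
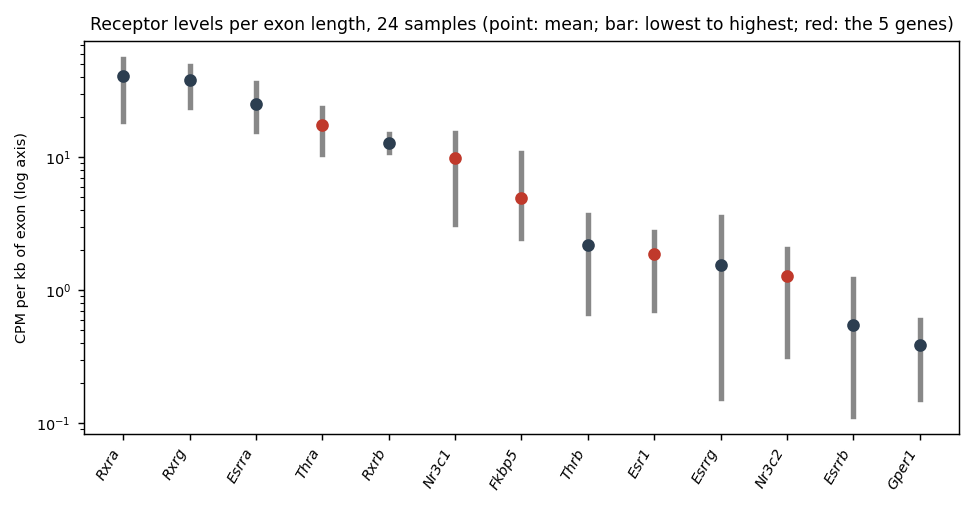
Levels of 13 genes, receptors and Fkbp5, as CPM per kb of exon on a log axis; points are means over 24 samples, bars run from the lowest to the highest sample, and red points are the 5 genes of the panel. Thra lies below Rxra, Rxrg and Esrra, and Nr3c2 is the lowest of the panel; Vdr, Esr2 and Pgr, with samples at 0, are not drawn.

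In female mice, sedentary pain was accompanied by lower levels of most of the panel. Esr1, Nr3c2, Thra and Fkbp5 fell against controls, by 36% to 55%, and Nr3c1 had a fold change of similar size that did not pass the test. The call used edgeR's quasi-likelihood test with a Benjamini-Hochberg adjusted p under 0.05. Of all 14511 genes tested, 33.5% passed in either direction, 13.9% as lower and 19.6% as higher, so a call in this comparison was common; the median log2 fold change was -0.94 over the 5 genes and -0.02 over all genes tested.

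Esr1 was at 37.4, 31.9, 32.9 and 26.0 CPM in female controls and 21.8, 12.4, 21.3 and 11.9 CPM in female sedentary pain, replicates 1 to 4. Every sedentary pain sample was below every control. The estrogen receptor alpha transcript thus had a mean of 32.1 ± 4.70 CPM in controls and 16.9 ± 5.47 CPM in sedentary pain (SD, n = 4), a log2 fold change of -0.94 ± 0.21 (SE; edgeR quasi-likelihood test, adjusted p = 0.00780).

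Nr3c2, the mineralocorticoid receptor, was at 9.66, 10.1, 7.30 and 8.93 CPM in controls and at 5.86, 2.51, 5.68 and 2.08 CPM in sedentary pain. Again the groups did not overlap, and replicates 2 and 4 were the low ones, as for Esr1. The log2 fold change was -1.17 ± 0.35 (edgeR adjusted p = 0.0275). It rested on few reads, 43 to 175 counts per sedentary pain sample, and it did not pass when any 1 of 5 samples was left out (controls 1, 2 and 4, sedentary pain 2 and 4; adjusted p from 0.0530 to 0.0702).

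Thra had little spread among the 4 female controls, which lay between 83.4 and 84.96 CPM, and the sedentary pain samples were at 57.0, 59.9, 53.2 and 48.4 CPM, again without overlap. Thyroid hormone receptor alpha had a log2 fold change of -0.65 ± 0.11 (edgeR adjusted p = 0.00318), the smallest of the 5 in size and the one with the smallest p. Its antisense neighbour Nr1d1 also fell, by 0.70 on the log2 scale with an SE of 0.11 (edgeR adjusted p = 0.00260). The part of shared reads in the Thra value was not tested. Groups without overlap, seen for Esr1, Nr3c2 and Thra, were found for 26.3% of all genes in this comparison.

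Fkbp5 was at 36.6, 46.4, 56.4 and 102 CPM in female controls and at 38.1, 23.3, 31.2 and 24.2 CPM in sedentary pain. The groups overlapped, since control replicate 1 was below sedentary pain replicate 1, and control replicate 4 stood far above the other controls. The co-chaperone gene had a log2 fold change of -1.06 ± 0.31 (edgeR adjusted p = 0.0258), which became -0.70 with an adjusted p of 0.0722 without control replicate 4. It also did not pass without sedentary pain replicate 2 or replicate 4, or with replicate number in the model as a block. Control replicates 3 and 4, the highest for Fkbp5, were also those with the high adipocyte marker sums, and 7 of 8 adipocyte markers fell in this comparison; their part in the Fkbp5 value was not tested.

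Nr3c1, the glucocorticoid receptor, was at 100, 117, 65.7 and 93.9 CPM in female controls and at 88.4, 27.8, 61.3 and 33.4 CPM in sedentary pain. Sedentary pain replicates 2, 3 and 4 were below all controls, while replicate 1 was within the control range, so the groups overlapped. The log2 fold change of -0.85 ± 0.33 did not pass after adjustment (edgeR adjusted p = 0.0655). Without sedentary pain replicate 1 it was -1.21 (edgeR adjusted p = 0.00710), and DESeq2 gave it an adjusted p of 0.0367. Over all genes, edgeR called 4867, or 2486 to 6674 with 1 sample left out, and DESeq2 called 5773.

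**Figure D2:**
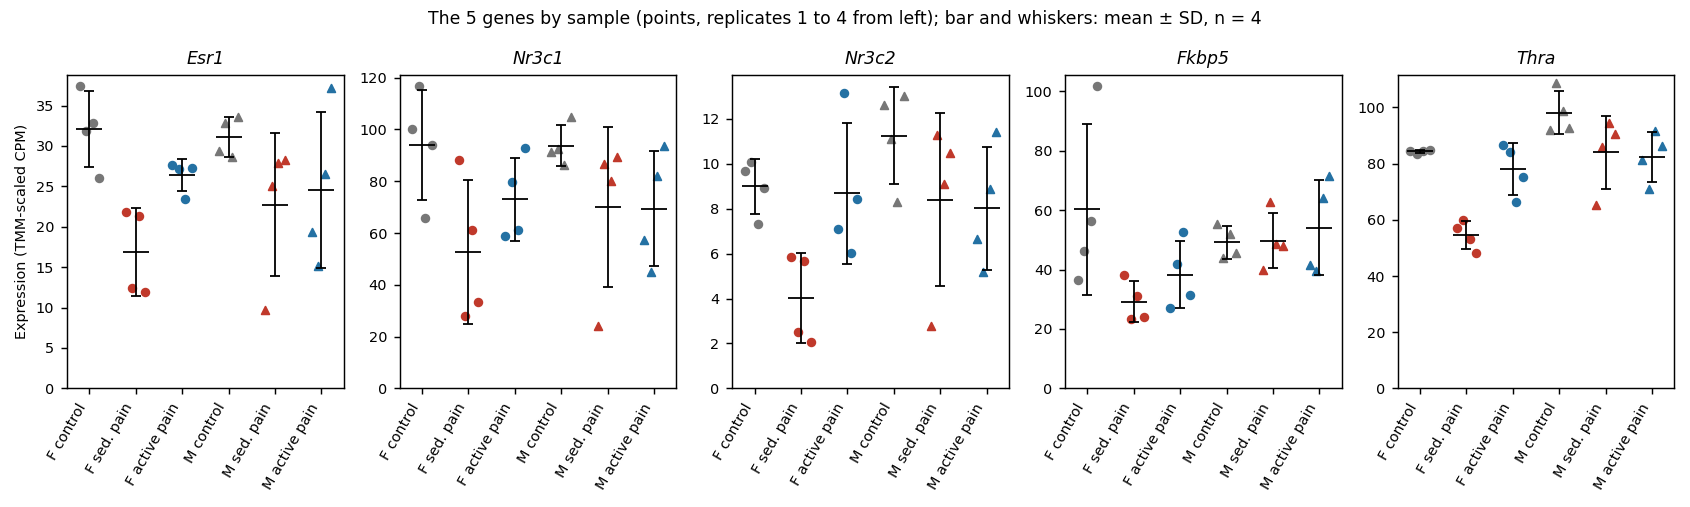
Expression of the 5 genes as TMM-scaled CPM in each sample, 1 panel per gene with its own axis from 0; circles are females, triangles males, grey control, red sedentary pain and blue active pain, with black bars for mean ± SD (n = 4). Female sedentary pain lies below female control without overlap for Esr1, Nr3c2 and Thra, and male sedentary pain replicate 1 is the lowest male sedentary pain sample in all 5 panels.

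Within female sedentary pain, the genes differed in how their levels stood beside the macrophage markers. Replicates 2 and 4 had the lowest Esr1, Nr3c1, Nr3c2 and Fkbp5, and their macrophage marker sums were 699 and 4318 CPM. Replicate 3, with a sum of 3356 CPM, had Esr1 at 21.3 CPM and Nr3c1 at 61.3 CPM, both below every control. Thra was lowest in replicates 4 and 3, at 48.4 and 53.2 CPM, which had the highest macrophage marker sums. The share of counts from mitochondrial genes was lowest in replicates 4 and 2, at 2.75% and 3.85%, against 5.86% and 8.22% in replicates 3 and 1 and 8.59% to 11.02% in female controls. The part of RNA quality, macrophage content or fibre content in the receptor values was not tested.

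Muscle fibre markers were themselves lower in 2 of these libraries, at 84924 and 79161 CPM in replicates 3 and 4, against 111063 to 156740 CPM in controls, and 3 of the 8 fell. In bulk RNA, fewer cells of a type and less RNA per cell cannot be told apart. Expressed per 100000 CPM of summed fibre markers, Thra was at 64.4 ± 8.99 in female controls and 52.4 ± 11.3 in sedentary pain, and Nr3c2 at 6.79 ± 0.657 and 3.93 ± 2.24 (SD, n = 4). On this scale the groups overlapped for each of the 5 genes.

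The decrease of the 4 called genes also depended on how samples were split and modelled. Library numbers are at most 20 for replicates 1 and 2 and at least 25 for replicates 3 and 4, and the sources used here do not say what they stand for. In replicates 1 and 2 alone the log2 fold changes were -1.02 for Esr1, -1.23 for Nr3c2, -0.53 for Thra, -0.44 for Fkbp5 and -0.90 for Nr3c1, and none passed. In replicates 3 and 4 alone they were -0.84, -1.08, -0.75, -1.53 and -0.77 in the same order, and Thra and Fkbp5 passed (edgeR adjusted p = 0.0258 and 0.0272). With 1 surrogate variable in the design none of the 5 passed: Nr3c1 moved to -0.04, Nr3c2 to -0.28 and Esr1 to -0.49, while Thra was at -0.45 and Fkbp5 at -1.08.

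In females that had run before the pain model, none of the 5 passed the test against controls. The log2 fold changes against control were -0.28 ± 0.21 for Esr1, -0.36 ± 0.33 for Nr3c1, -0.05 ± 0.34 for Nr3c2, -0.11 ± 0.11 for Thra and -0.65 ± 0.31 for Fkbp5. The smallest edgeR adjusted p among them was 0.728. The background in this comparison was 0% of 14511 genes by edgeR, while 1020 genes had a p under 0.05 before adjustment and DESeq2 called 125.

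Against sedentary pain, active pain females had higher Thra, and the other 4 had positive fold changes that did not pass. Thra was at 86.5, 84.2, 66.3 and 75.4 CPM in active pain, all above the highest sedentary pain sample at 59.9 CPM. Its log2 fold change was 0.53 ± 0.11 (edgeR adjusted p = 0.0328). In this comparison 11.9% of all genes passed, 2.51% as higher and 9.41% as lower. Macrophage marker sums were 181 to 412 CPM in active pain and 410 to 4318 CPM in sedentary pain. Fibre marker sums were 119889 to 177513 CPM and 79161 to 150360 CPM, and mitochondrial shares 6.67% to 11.4% and 2.75% to 8.22%, in the same order. The part of these differences in the values of the 5 genes was not tested. Thra did not pass when any 1 of 5 samples was left out (sedentary pain 3 and 4, active pain 1, 2 and 4; edgeR adjusted p from 0.0636 to 0.101).

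Esr1 in active pain was at 27.6, 27.2, 23.4 and 27.3 CPM, above all sedentary pain samples, with a log2 fold change of 0.66 ± 0.21 (edgeR adjusted p = 0.0571). Nr3c2 was at 7.10, 13.1, 6.05 and 8.42 CPM, also without overlap with sedentary pain, and its log2 fold change was 1.12 ± 0.35 (edgeR adjusted p = 0.0565). Groups without overlap were found for 11.8% of genes here. Both genes lay just outside the threshold and passed with DESeq2, at adjusted p of 0.0219 for Esr1 and 0.0144 for Nr3c2. DESeq2 called more genes of all kinds in this comparison, 3010 against 1730 by edgeR. These comparisons share the female sedentary pain samples with the one against controls, so the values are set side by side and not counted as separate support.

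Nr3c1 in active pain females was at 58.9, 79.6, 61.0 and 92.8 CPM and Fkbp5 at 27.2, 41.8, 52.5 and 31.6 CPM. Both overlapped with sedentary pain and with controls. The log2 fold changes against sedentary pain were 0.49 ± 0.33 for Nr3c1 and 0.41 ± 0.31 for Fkbp5 (edgeR adjusted p = 0.316 and 0.371). Without sedentary pain replicate 1, Esr1, Nr3c2 and Nr3c1 passed along with Thra, with Nr3c1 at 0.83 (edgeR adjusted p = 0.0490). Over all genes, edgeR called 1730 with every sample and 0 to 4316 with 1 sample left out, so the number of calls moved widely.

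**Figure D3:**
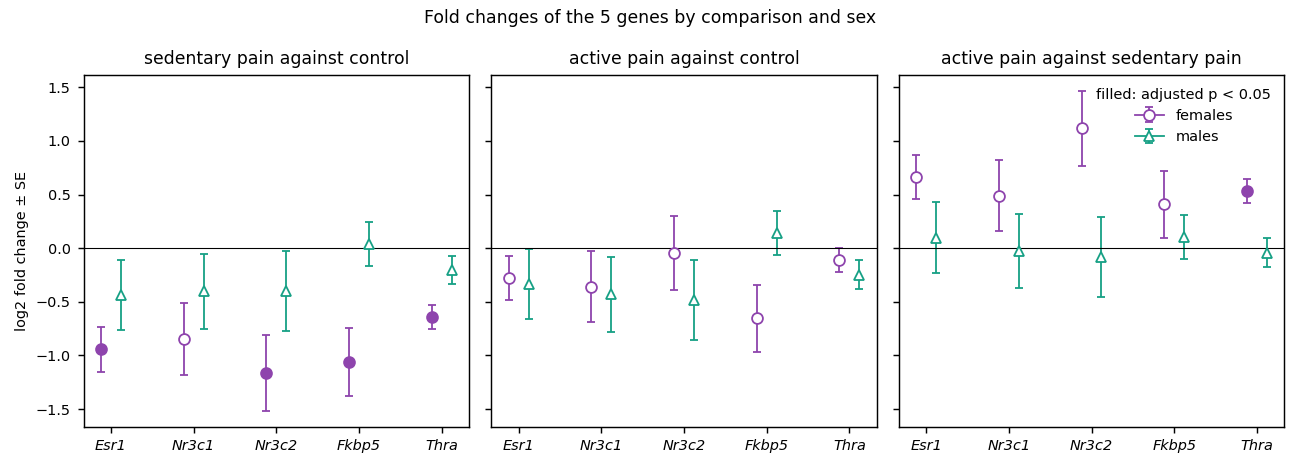
Log2 fold changes with their SE for the 5 genes in 3 comparisons, purple circles for females and green triangles for males, filled where the adjusted p was under 0.05. In sedentary pain against control 4 female points are filled, in active pain against sedentary pain only that of female Thra, and no male point is filled.

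In males none of the 5 genes passed the test between conditions. The background was 0% of 14404 genes in each of the 3 comparisons by edgeR; without adjustment, a p under 0.05 was reached by 1273 genes in sedentary pain against control, 1045 in active pain against control and 121 in active against sedentary pain, and DESeq2 called 270, 127 and 0. Sedentary pain against control gave log2 fold changes of -0.43 ± 0.33 for Esr1, -0.40 ± 0.35 for Nr3c1, -0.40 ± 0.37 for Nr3c2, -0.21 ± 0.13 for Thra and 0.04 ± 0.20 for Fkbp5. The smallest edgeR adjusted p of these was 0.631.

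Those male values leaned on 1 sample. Male sedentary pain replicate 1 had Esr1 at 9.65 CPM against 25.1, 27.8 and 28.3 CPM in replicates 2 to 4. It had Nr3c1 at 24.2 CPM against 86.5, 80.2 and 89.2 CPM, and Nr3c2 at 2.79 CPM against 11.3, 9.08 and 10.5 CPM. Thra was lowest there too, at 65.3 CPM against 85.8 to 94.4 CPM, and Fkbp5 was at 39.99 CPM against 47.8 to 62.6 CPM.

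The same library had a macrophage marker sum of 772 CPM, against 123 to 395 CPM in the other 3 and 59.2 to 118.6 CPM in male controls. Its satellite cell marker sum was 77.8 CPM, against 29.2 to 33.999 CPM in the other 3. Its mitochondrial share was 4.53%, against 10.4% to 11.3%. Without it the log2 fold changes were -0.18 for Esr1, -0.12 for Nr3c1, -0.11 for Nr3c2, -0.10 for Thra and 0.13 for Fkbp5. Male controls were tight by comparison: Esr1 lay between 28.7 and 33.6 CPM and Nr3c1 between 86.1 and 105 CPM. Esr1 in male sedentary pain did not overlap with these controls, as was the case for 8.07% of genes, and the change was not called.

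In male active pain the same samples were low and high for the steroid receptors. Esr1 was at 19.4, 15.2, 26.5 and 37.2 CPM, Nr3c1 at 57.2, 44.9, 81.9 and 93.7 CPM and Nr3c2 at 6.63, 5.16, 8.86 and 11.4 CPM, so replicate 2 was the lowest and replicate 4 the highest of each. Replicate 2 also had the lowest fibre marker sum of the male samples, 107697 CPM, and the lowest mitochondrial share of its group, 5.97%. Thra was at 81.2, 70.8, 91.7 and 86.1 CPM, all under the lowest male control at 92.1 CPM. Its log2 fold change against control was -0.25 ± 0.13 (edgeR adjusted p = 0.634), and 10.4% of genes had groups without overlap. Against sedentary pain, all 5 log2 fold changes in males lay between -0.08 and 0.11, with SE of 0.13 to 0.37.

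**Figure D4:**
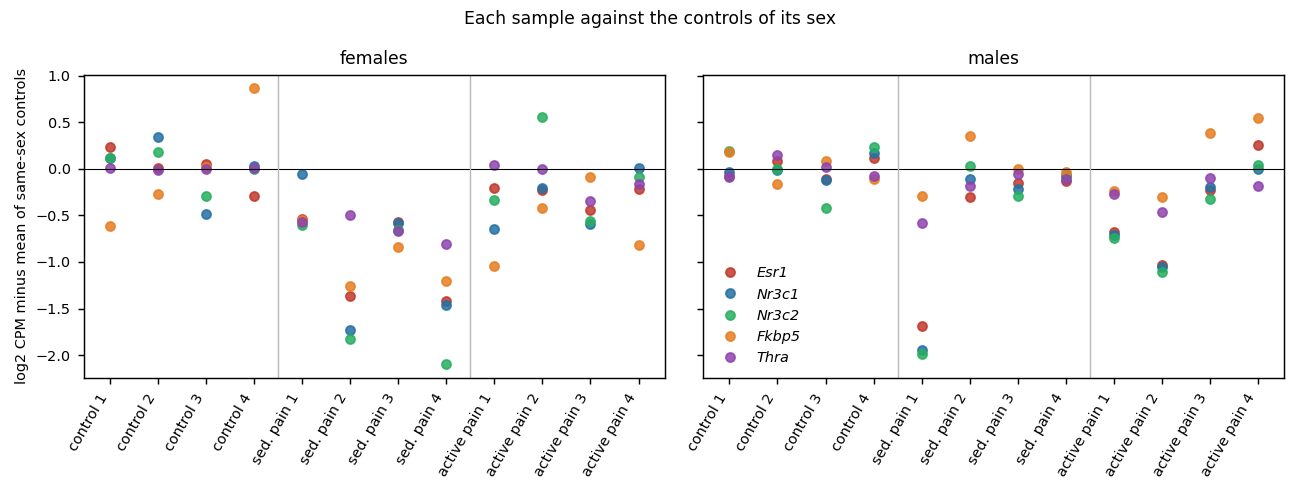
Log2 CPM of each gene in each sample minus the mean of the 4 controls of the same sex, females left and males right, 1 column per sample and 1 colour per gene. Female sedentary pain replicates 2 and 4 and male sedentary pain replicate 1 reach the lowest values, with Nr3c2 below Thra in each of the 3.

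The sexes were compared directly in a fit of all 24 samples. None of the 5 genes passed a test of whether the change differed between males and females, and none of the 15103 genes tested did (0%), while for sedentary pain against control 1446 had a p under 0.05 before adjustment and DESeq2 called 15 genes. The nearest in that comparison were Fkbp5, with a male minus female difference of 1.07 ± 0.39 in log2 fold change (edgeR adjusted p = 0.442), and Thra at 0.40 (edgeR adjusted p = 0.466). So the calls in females and their lack in males are not shown to be a sex difference. For active against sedentary pain, Thra differed by -0.54 ± 0.16 (edgeR adjusted p = 0.228). Without male sedentary pain replicate 1, that became -0.65 with an adjusted p of 0.0228, and Nr3c2 reached -1.46 with an adjusted p of 0.0374; 2174 of all genes passed without that sample, against 0 with it, and DESeq2 called 133 with it.

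Averaged over both sexes, sedentary pain against control called Thra at -0.43 ± 0.08, Esr1 at -0.69 ± 0.20, Nr3c2 at -0.78 ± 0.27 and Fkbp5 at -0.51 ± 0.19 (edgeR adjusted p = 0.00102, 0.0142, 0.0281 and 0.0431). Nr3c1 at -0.63 ± 0.25 had an adjusted p of 0.0539. The Fkbp5 call did not hold in 10 of the 24 fits with 1 sample left out, and without female control replicate 4 its log2 fold change was -0.34 (edgeR adjusted p = 0.123). Of 15103 genes, 37.4% passed. Active pain against control (0.0331% of genes passing) and against sedentary pain (0%) called none of the 5. DESeq2 called 505 genes in the first, where edgeR called 5, or 0 to 379 with 1 sample left out. In the second DESeq2 called 1276 genes, and by edgeR 3274 had a p under 0.05 before adjustment. There edgeR called 0 to 1923 genes with 1 sample left out.

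Control mice of both sexes had similar levels of Esr1 and Nr3c1. Between male and female controls 2.83% of 15103 genes passed the edgeR test and none of the 5 did. Esr1 had a mean of 31.1 ± 2.45 CPM in male and 32.1 ± 4.70 CPM in female controls (SD, n = 4), and Nr3c1 93.7 ± 7.99 and 94.1 ± 21.2 CPM. Thra was at 92.1 to 109 CPM in male and 83.4 to 84.96 CPM in female controls. Those Thra groups did not overlap, as for 22.3% of genes, but the log2 difference of 0.22 ± 0.12 had an adjusted p of 0.387.

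Ordered by group mean, female sedentary pain was lowest for all 5 genes. The gap to the next group exceeded the larger of both SDs for Nr3c2 (4.03 against 8.02 CPM in male active pain) and for Thra (54.6 against 78.1 CPM in female active pain), and not for Esr1, Nr3c1 or Fkbp5. The top of the order was female control for Esr1, Nr3c1 and Fkbp5, and male control for Nr3c2 and Thra. For Esr1 and Nr3c1 both control groups stood above all pain groups, and the step from the lower control to the next group exceeded the SD. For Fkbp5 no neighbouring groups were separated by more than their SD.

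Other receptors also fell in female sedentary pain. Of the 12 related receptors listed, 10 were tested, 5 fell and none rose, with a median log2 fold change of -0.64 against -0.02 over all genes, of which 13.9% fell and 19.6% rose. Thrb, which shares the hormone of Thra, fell by 1.07 on the log2 scale with an SE of 0.28 (edgeR adjusted p = 0.0165). The retinoid partners Rxra and Rxrg fell by 0.71 and 0.42, whereas Rxrb had a log2 fold change of -0.03. Esrrb fell by 1.73, while Esrrg at -1.56, Gper1 at -0.57, Esrra at -0.09 and Vdr at 1.42 did not pass. In active against sedentary pain in females, Esrrb (log2 fold change 2.00) and Esrrg (1.98) rose and none fell, with edgeR adjusted p of 0.0328 and 0.0496, beside 2.51% of all genes higher and 9.41% lower.

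Of 15 chaperone genes of the HSP90 system, which folds steroid receptors, 6 rose and 2 fell in female sedentary pain against control, beside 19.6% of all genes called higher and 13.9% lower. Their median log2 fold change was 0.27. Dnajb1, an HSP40 co-chaperone, rose by 0.79 on the log2 scale with an SE of 0.22 (edgeR adjusted p = 0.0197), and Hspa8, the constitutive HSC70, by 0.68 with an SE of 0.14 (adjusted p = 0.00639). Tsc1, an HSP90 co-chaperone better known as an inhibitor of mTORC1, fell by 0.89, and the phosphatase Ppp5c fell by 0.36. Fkbp4 encodes FKBP52, the counterpart of FKBP51 that favours receptor transport to the nucleus, and it was at -0.06 and not called. In active against sedentary pain 5 of the 15 fell and none rose, beside 9.41% of all genes called lower and 2.51% higher, with Dnajb1 at -0.87 and Hsp90aa1 at -0.73 (edgeR adjusted p = 0.0331 and 0.0328).

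Of 14 hormone-converting enzymes and transporters tested, 1 rose and 1 fell in female sedentary pain, with a median log2 fold change of -0.06, against 33.5% of all genes called in either direction. Srd5a3, a polyprenol reductase of the steroid 5-alpha-reductase family, rose by 1.99 on the log2 scale with an SE of 0.47 (edgeR adjusted p = 0.0106). Hsd17b7, which acts on estrone and in cholesterol synthesis, fell by 0.89. Hsd11b1, which regenerates active glucocorticoid in the cell, had a log2 fold change of -0.71 ± 0.45 (adjusted p = 0.225), and Dio2, which makes active thyroid hormone, was at 1.21 ± 0.46 (adjusted p = 0.0590). In active against sedentary pain Srd5a3 fell by 1.77 and no other enzyme passed, against 11.9% of all genes. H6pd, which supplies the cofactor of the enzyme encoded by Hsd11b1, was 0.83 higher on the log2 scale in male than in female controls (edgeR adjusted p = 0.00975).

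Genes known to be induced by glucocorticoids did not move 1 way. Of 29 tested in female sedentary pain against control, 6 rose and 6 fell, and the median log2 fold change was -0.04. Over all genes 19.6% rose and 13.9% fell, with a median of -0.02, so the counts and median of this list were near those of all genes. The metallothioneins Mt2 and Mt1, which bind zinc and also respond to metals and inflammation, rose by 6.04 and 4.50 on the log2 scale. Tsc22d3, which encodes the glucocorticoid-induced leucine zipper GILZ, rose by 0.96 with an SE of 0.29 (edgeR adjusted p = 0.0284), and was singled out after its values were seen. The transcription factor genes Klf9 and Klf15, both direct glucocorticoid targets, fell by 1.94 and 1.48 (adjusted p = 0.0347 and 0.00303). Per1 at 0.35, Zbtb16 at -0.87 and the atrophy ubiquitin ligases Fbxo32 at -0.21 and Trim63 at 0.73 did not pass.

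Klf9 was low in the same samples as Esr1, Nr3c1 and Nr3c2. It was at 77.1, 85.6, 47.9 and 89.1 CPM in female controls and at 33.4, 5.14, 35.5 and 4.45 CPM in female sedentary pain, lowest in replicates 2 and 4. In male sedentary pain it was at 7.31 CPM in replicate 1 and at 94.0, 77.0 and 88.0 CPM in the others. Mt2 went the other way, at 185, 702, 137 and 495 CPM in female sedentary pain, highest in replicates 2 and 4, and at 1153 CPM in male sedentary pain replicate 1 against 8.04 to 16.3 CPM in the others. In active against sedentary pain females, Klf15 rose by 1.22 on the log2 scale, and Mt2 and Mt1 fell by 2.48 and 2.20, among 1 of 29 that rose and 3 that fell. Those counts are near the shares of all genes, 2.51% higher and 9.41% lower.

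**Figure D5:**
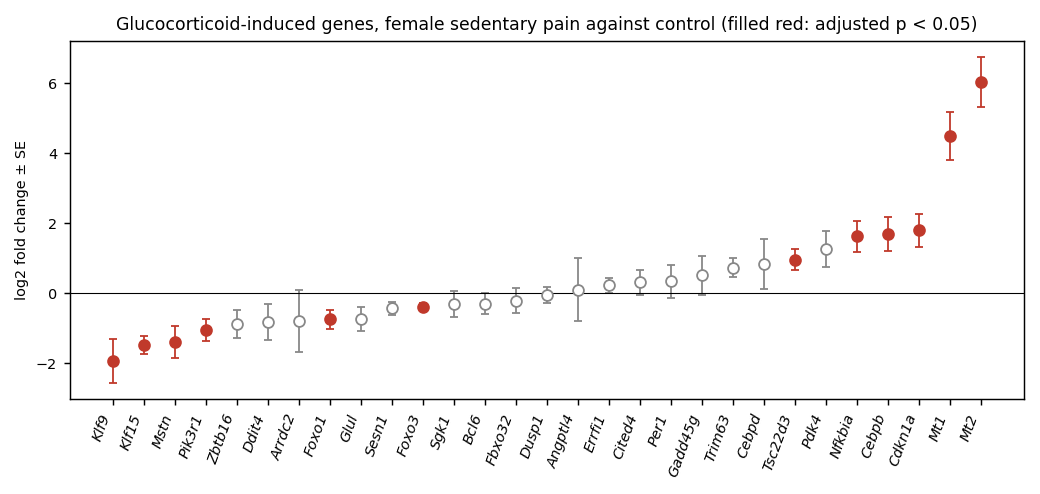
Log2 fold changes with their SE of the 29 glucocorticoid-induced genes tested, female sedentary pain against female control, ordered by size; filled red points passed at an adjusted p under 0.05. The 6 red points on the left run from Klf9 at -1.94 upward and the 6 on the right end with Mt2 at 6.04.

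Target lists of the other receptors were counted in the same way in female sedentary pain against control, where 19.6% of all genes rose, 13.9% fell and the median log2 fold change was -0.02. Among mineralocorticoid-induced genes, 3 of 9 tested rose and none fell, with a median of 0.18. Lcn2, also known as an acute inflammatory gene, rose by 2.99 on the log2 scale with an SE of 0.88 (edgeR adjusted p = 0.0256). Among estrogen-responsive genes, 6 of 12 rose and 1 fell, with a median of 0.63; Ccn5 rose by 1.66 and the cell cycle gene Ccnd1 by 1.54, and Vegfa fell by 1.14. Against sedentary pain, active pain had 3 of these 12 lower, Ccnd1 by 1.239 and Myc by 1.16 among them, and none higher, beside 9.41% of all genes lower and 2.51% higher.

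Among thyroid hormone-responsive genes, 3 of 15 rose and 5 fell, with a median of -0.57; the share that rose was close to the 19.6% of all genes. Bcl3 rose by 3.69 and the uncoupling protein gene Ucp2 by 3.48. Thrsp, a lipogenic gene named for its response to thyroid hormone, fell by 4.35 and the fast myosin gene Myh2 by 1.74. Thrsp was at 22.6, 23.6, 515 and 375 CPM in female controls and 6.82 to 20.0 CPM in female sedentary pain, so 2 control libraries, those with the high adipocyte marker sums, carried most of the difference. Male controls, at 10.3 to 18.4 CPM, had a log2 fold change of -3.998 against the same female controls. In active against sedentary pain Bcl3 fell by 2.86 and Ucp2 by 2.63, the 2 of 15 that fell, and none rose, against 9.41% and 2.51% of all genes. The macrophage and lymphocyte marker sums given above were higher in the same female sedentary pain samples, and their part in the list values was not tested.

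Of 19 nuclear receptor coregulators tested in female sedentary pain, 2 rose and 3 fell, with a median of -0.18, beside 33.5% of all genes called. The arginine methyltransferase gene Prmt1 rose by 0.69 and the coactivator gene Ncoa3 by 0.61. Ncor1, a corepressor through which unliganded thyroid receptors silence genes, fell by 0.76 (edgeR adjusted p = 0.0367). In active against sedentary pain Ncoa3 fell by 0.64, 1 of 19, and no coregulator rose, against 9.41% and 2.51% of all genes. In males none of the genes of these lists passed in any of the 3 comparisons, where no gene at all did by edgeR.

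Across the 24 samples, Esr1, Nr3c1 and Nr3c2 were high and low in the same libraries. Pearson's r of log2 CPM was 0.92 for Esr1 with Nr3c1, 0.90 for Esr1 with Nr3c2 and 0.91 for Nr3c1 with Nr3c2, and within groups, with group means removed, 0.88, 0.89 and 0.92. By rank, Spearman's rho over the 24 samples was lower for these pairs, at 0.76, 0.75 and 0.75 in the same order. For Fkbp5 and Nr3c1, the receptor that FKBP51 regulates, r was 0.54, or 0.42 within groups. For Fkbp5 and Thra r was 0.57, or 0.12 within groups. These are descriptions over libraries that share conditions, depth and tissue composition.

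The genes most like each member were found by Spearman's rho over the 24 samples among 11478 genes. For Esr1 they were Pitpnc1 (rho 0.90), Asb18 (0.89) and Dpf3 (0.88). Kctd21 (0.92), Tmem56 (0.91) and Best3 (0.91) were nearest to Nr3c1. For Nr3c2 they were Fundc2 (0.97), Dld (0.97), which encodes a mitochondrial dehydrogenase subunit, and Lrrc39 (0.96), a sarcomere protein gene. Fkbp5 had lower likenesses, with Dgkd at 0.86, Plin4, a lipid droplet coat gene, at 0.84 and Plekhf1 at 0.82. Lingo3 (0.94) and Sec61a2 (0.93) were among the 3 nearest to Thra.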

How the data were processed

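Bulk RNA was sequenced from 24 muscles. Per the labels' protocols, stranded TruSeq libraries were made from 0.5 µg of total RNA and read as 100-base paired ends. The deposited files hold raw read counts for 54532 Ensembl genes, whole numbers without normalization. The submitters' processing notes name HISAT2 2.1.0, Salmon 0.9.1, featureCounts and DESeq2 1.24.0, and the builds mm10 and GRCm38.p6; which step made the counts is not given in the sources used here. Positions come from GENCODE M21 (54495 genes matched by identifier).

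From the counts, genes were filtered with filterByExpr (minimum count 10), scaled by the trimmed mean of M-values (TMM) and tested with edgeR 4.0.16 quasi-likelihood F tests, two-sided and robust, in R 4.3.3. Each sex was fitted alone (12 samples); sex differences, means of both sexes and the control comparison used all 24. P-values were adjusted over all genes tested by the Benjamini-Hochberg procedure. CPM values carry TMM factors, and the SE corresponds to the test's p. The fit was tested on simulated data.

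The members and lists were chosen with earlier results of these data known. The 8 gene lists and 9 marker lists held 214 symbols, of which 213 were found. Named were every related receptor and, per list and comparison, the 2 called genes that rose most and the 2 that fell most, if their mean log2 CPM was 1 or more; other list genes named were chosen after their values were seen. A few genes that this rule would name are not reported here. Per member, the 3 genes with the highest rho were named, among genes whose mean log2 CPM was 1 or more (prior count 2). Alternatives were RLE scaling, DESeq2 1.42.0, no low-count filter, no robust step, the replicate block, the library-number split, no mitochondrial genes, 1 fit of all samples, each sample left out, and, added with results known, replicates 1 and 2 or 3 and 4 only, 1 surrogate variable (sva 3.50.0), and sample offsets for GC and transcript length (splines of 5 degrees of freedom). limma 3.58.1, Python 3.11.15, pandas 2.3.3, NumPy 2.4.6, SciPy 1.17.1 and matplotlib 3.10.9 were also used.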

Additional observations from a re-analysis of the deposited data

Results flagged for a closer look

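In 3 of the genes the same sample stood far below the rest of its group of 4: male sedentary pain replicate 1 had Esr1 at 9.65 CPM, Nr3c1 at 24.2 CPM and Nr3c2 at 2.79 CPM. The gap to the next sample, divided by the group's range, exceeded the 95% critical value of Dixon's test for groups of 4. Esr1 in female active pain replicate 3, at 23.4 CPM, met the same criterion within a tight group. Of 30 groups examined 4 met it, and chance gives about 1 in 20 for independent groups. The 30 are 5 genes in the same 6 groups of samples, so they are not independent and this rate is only a guide.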

How the results depend on the processing

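No called fold change of the 5 genes reversed its sign under any alternative. Fold changes of the list genes were not examined under the alternatives. In female sedentary pain against control, 4 genes of the panel passed; 0 passed in replicates 1 and 2 only, 2 in replicates 3 and 4 only, 0 with 1 surrogate variable, and 2 to 5 with each sample left out (2 without control replicate 4, sedentary pain replicate 2 or replicate 4). In female active against sedentary pain, 1 passed; 3 passed with DESeq2, 0 with no filter on low counts, 3 with the library-number split as covariate, 0 in replicates 1 and 2 or 3 and 4 only, 0 with 1 surrogate variable, 3 with the GC and length correction, and 0 to 4 with each sample left out (4 without sedentary pain replicate 1, 0 without 5 others). Averaged over both sexes, sedentary pain against control went from 4 to 0 in replicates 1 and 2 only, 2 in replicates 3 and 4 only, 1 with a surrogate variable, and 2 to 5 with each sample left out. The sex difference of sedentary pain against control went from 0 to 1 in replicates 3 and 4 only, and that of active against sedentary pain from 0 to 0 to 2 with each sample left out. The cause was not tested.

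With the replicate block, 3 of the 5 passed in female sedentary pain against control (Fkbp5 had an edgeR adjusted p of 0.0574) and 2 in active against sedentary pain; the count averaged over both sexes was 3. Same-numbered samples correlated at a mean of 0.103 in females (-0.305 to 0.394 over 12 pairs) and 0.00654 in males, so the numbers are not shown to pair the samples. Over all genes, female sedentary pain against control had 4867 called genes, 238 in replicates 1 and 2 only, 114 with 1 surrogate variable and 2486 to 6674 with each sample left out. Female active against sedentary pain had 1730 called genes, 3010 with DESeq2, 174 with no filter and 0 to 4316 with each sample left out.

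Esr2 and Pgr had too few counts at this depth to be tested, and the smallest counts of the 5 genes were those of Nr3c2.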
